A study of Danio rerio with 12 samples.

Results

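The genes described here are the zebrafish ERM genes (*ezra* and *ezrb* for ezrin, *rdx* for radixin, *msna* and *msnb* for moesin), the scaffold gene *slc9a3r1a* and the podocalyxin gene *podxl*. The 7 genes were selected by name among 21570 genes listed in the loss-of-function experiment and 21119 listed in the gain-of-function experiment. *slc9a3r1a* was chosen by its own values, namely lower without *hand2* and higher with excess *hand2*, so its levels are given below as a description with no test. A row exists in each table for 6 of the 7 genes. *rdx* has no row of its own and appears only as an alternative protein-database name of the *msna* row, so radixin is not analysed here.

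RNA was sequenced from cardiomyocytes sorted by flow cytometry from embryos at 20 hours after fertilization (hpf), on a reporter under the cardiomyocyte promoter *myl7*. For the gain-of-function experiment the sources name EGFP in one place and mCherry in another as that reporter. In the loss-of-function experiment, 3 libraries came from *hand2 FLD*-/- embryos, which carry a deletion across the *hand2* locus on both chromosomes, and 3 from *hand2 FLD*+/? siblings, which are wild type or heterozygous for that deletion. In the gain-of-function experiment, 3 libraries came from *hand2* OE embryos, in which the transgene *Tg(myl7:hand2-p2a-EGFP)* expresses *hand2* from the *myl7* promoter, and 3 from WT siblings. Hand2 is a transcription factor needed for the heart precursors to move to the midline and fuse. The paper's legends call the 3 samples of each group biologically independent. The sources do not say which embryos were pooled into a library, so p values measure the spread between libraries.

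ERM proteins fasten the cortical actin network to the plasma membrane. An amino-terminal FERM domain docks on membrane proteins and lipids, a carboxy-terminal tail holds actin filaments, and the folded, closed protein opens when the lipid PIP2 binds and kinases such as SLK and LOK phosphorylate the tail. The scaffold NHERF1, product of *slc9a3r1a*, carries PDZ domains that hold channels, transporters and receptors and a tail that docks on the FERM domain. Podocalyxin is a heavily charged sialomucin that reaches the ERM proteins directly or through NHERF scaffolds, and it is best known from kidney podocytes and from apical surfaces that open a lumen. In vertebrate embryos moesin is prominent in endothelium and ezrin in epithelia with microvilli.

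Without *hand2* the members moved in opposite directions. *slc9a3r1a* and *podxl* were lower in *hand2 FLD*-/- cells, *ezra* and *ezrb* were higher, *msna* was slightly lower, and *msnb* was near 0. With excess *hand2*, *slc9a3r1a* was higher, and none of the other 3 members with enough reads passed the test. The values are normalized read counts, which the authors had divided by a factor for each library, separately in each experiment. A gene was called changed when limma gave a Benjamini-Hochberg adjusted p of at most 0.05 over all genes tested and a fold change of at least 1.5 (0.585 on the log2 scale).

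**Figure D1:**
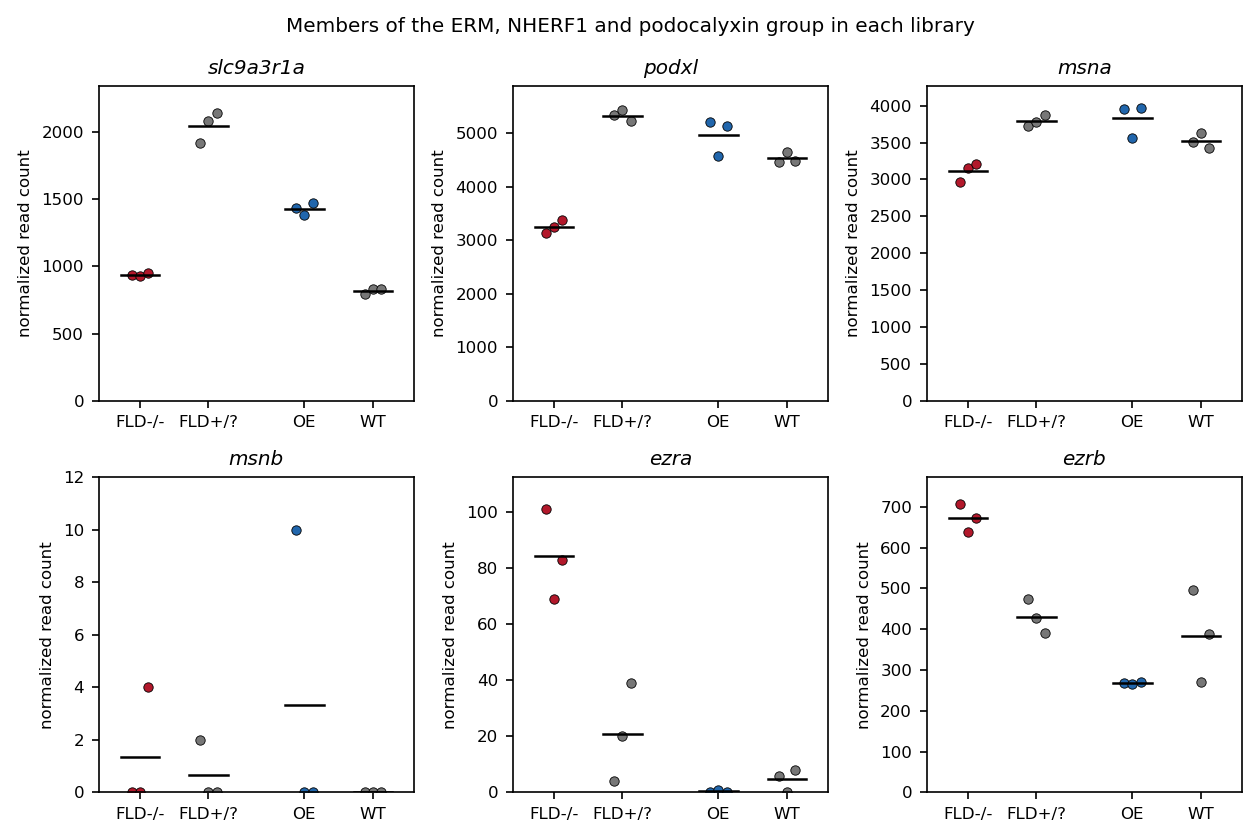
Normalized read count (vertical axis, linear from 0) of the 6 members with a row, in each library (points) with the mean of the 3 libraries (line), for *hand2 FLD*-/- and *hand2 FLD*+/? and for *hand2* OE and WT; the experiments were scaled separately. *slc9a3r1a* lies lower in *hand2 FLD*-/- (939 on average) than in *hand2 FLD*+/? (2046) and higher in *hand2* OE (1428) than in WT (819), while *ezrb* lies higher in *hand2 FLD*-/- (672) than in *hand2 FLD*+/? (430.0).

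*slc9a3r1a* (ENSDARG00000000068, danRer11 chromosome 12, 33484458 to 33537126, plus strand) had 933, 931 and 953 normalized read counts in *hand2 FLD*-/- libraries, against 1920, 2078 and 2140 in *hand2 FLD*+/? libraries. The 3 mutant libraries lay close together and far below the lowest sibling library. The mean was 939 ± 12.2 in the mutants and 2046 ± 113 in the siblings (SD, n = 3 each), a log2 fold change of -1.12 (standard error 0.05). In the gain-of-function experiment the values were 1430, 1383 and 1472 in *hand2* OE libraries, against 793, 832 and 831 in WT libraries. Here too the groups did not overlap, with means of 1428 ± 44.5 in *hand2* OE and 819 ± 22.2 in WT (SD, n = 3 each) and a log2 fold change of 0.80 (standard error 0.06). These differences are what the gene was chosen for and carry no test. The experiments had no common baseline, since the controls averaged 2046 in *hand2 FLD*+/? and 819 in WT, and the tables were scaled separately.

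The membrane partner podocalyxin fell in the mutants and did not pass the test with excess *hand2*. *podxl* (ENSDARG00000031228, chromosome 4, 11732156 to 11751037, minus strand) had 3140, 3241 and 3382 normalized read counts in *hand2 FLD*-/- libraries, against 5327, 5430 and 5219 in *hand2 FLD*+/? libraries. The groups did not overlap, and each group's libraries stayed within a few percent of their mean. *podxl* fell by 0.71 on the log2 scale (standard error 0.03, 95% interval -0.79 to -0.64, adjusted p = 1.33e-06 from limma), averaging 3254 ± 122 in the mutants and 5325 ± 106 in the siblings (SD, n = 3 each). In the gain-of-function experiment *podxl* had 5204, 4573 and 5128 in *hand2* OE libraries, against 4462, 4642 and 4472 in WT libraries. The groups overlapped, because the second *hand2* OE library lay below the highest WT library. The log2 fold change of 0.13 (standard error 0.05, 95% interval 0.02 to 0.24) did not pass (adjusted p = 0.149 from limma). Its interval lies below a rise of 1.5-fold in these scaled values. The reads of *podxl* hardly grew with depth in these libraries (slope of -0.84, described below). Whether that limit holds for the RNA was not tested.

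The moesin gene *msna* was slightly lower without *hand2* and short of the fold threshold in each experiment. *msna* (ENSDARG00000058128, chromosome 5, 22133153 to 22174037, plus strand) had 2971, 3150 and 3211 normalized read counts in *hand2 FLD*-/- libraries, against 3731, 3782 and 3869 in *hand2 FLD*+/? libraries. The libraries of the groups did not overlap, but the difference of -0.29 on the log2 scale (standard error 0.04, 95% interval -0.37 to -0.21) lay below the fold threshold, although the adjusted p was 3.65e-04 from limma. It averaged 3111 ± 125 in the mutants and 3794 ± 69.8 in the siblings (SD, n = 3 each). In the gain-of-function experiment *msna* had 3959, 3561 and 3975 in *hand2* OE libraries, against 3505, 3635 and 3427 in WT libraries. These overlapped, and the log2 fold change was 0.12 (standard error 0.05, 95% interval 0.01 to 0.23, adjusted p = 0.185 from limma).

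*msnb*, the second moesin gene (ENSDARG00000028740, chromosome 14, 9287683 to 9336601, plus strand), was all but absent from the counts. It had 0, 0 and 4 normalized read counts in *hand2 FLD*-/- libraries and 2, 0 and 0 in *hand2 FLD*+/? libraries, then 10, 0 and 0 in *hand2* OE libraries and 0, 0 and 0 in WT libraries. The gene was below the minimum mean of 5 in each experiment and was not tested. At this depth a few reads per library cannot be told from none, and its row overlaps another gene model on the same strand.

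The ezrin genes went against the rest of the group. *ezrb* (ENSDARG00000025091, chromosome 20, 13564931 to 13625588, minus strand) had 706, 637 and 672 normalized read counts in *hand2 FLD*-/- libraries, against 473, 427 and 390 in *hand2 FLD*+/? libraries. All 3 mutant libraries lay above all 3 sibling libraries. *ezrb* rose by 0.65 on the log2 scale (standard error 0.09, 95% interval 0.44 to 0.85, adjusted p = 7.84e-04 from limma), averaging 672 ± 34.5 in the mutants and 430.0 ± 41.6 in the siblings (SD, n = 3 each). The interval reaches below the fold threshold, and without the third *hand2 FLD*+/? library the log2 fold change was 0.58, just short of the call.

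*ezra*, the second ezrin gene (ENSDARG00000020944, chromosome 17, 45413324 to 45452116, plus strand), had 101, 69 and 83 normalized read counts in *hand2 FLD*-/- libraries, against 4, 20 and 39 in *hand2 FLD*+/? libraries. The libraries spread about equally in counts, with an SD of 16.0 in the mutants and 17.5 in the siblings, and the highest sibling stayed below the lowest mutant. *ezra* rose by 2.39 on the log2 scale (standard error 0.68, 95% interval 0.86 to 3.91, adjusted p = 0.0262 from limma). The call was lost without the first, the second or the third *hand2 FLD*-/- library (adjusted p = 0.0872, 0.0515 and 0.0693 from limma) and in limma without the trend (adjusted p = 0.0952). The fold is also imprecise, since without the first *hand2 FLD*+/? library, the lowest, the log2 fold change was 1.54, and without the third, the highest, it was 3.04, with the call kept each time.

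In the gain-of-function experiment neither ezrin gene gave a call. *ezrb* had 267, 265 and 270 normalized read counts in *hand2* OE libraries, against 495, 270 and 388 in WT libraries. The *hand2* OE libraries were nearly identical, and the second WT library was level with the highest of them. The log2 fold change was -0.48 (standard error 0.20, 95% interval -0.94 to -0.02, adjusted p = 0.217 from limma). Without the second WT library it was -0.71 and passed (adjusted p = 0.0469 from limma). *ezra* had 0, 1 and 0 in *hand2* OE libraries and 6, 0 and 8 in WT libraries, too few reads to be tested or to give a fold. Over the alternatives run for *ezrb* in this experiment the adjusted p ranged between 0.0469 and 0.492, and all gave a negative log2 fold change.

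**Figure D2:**
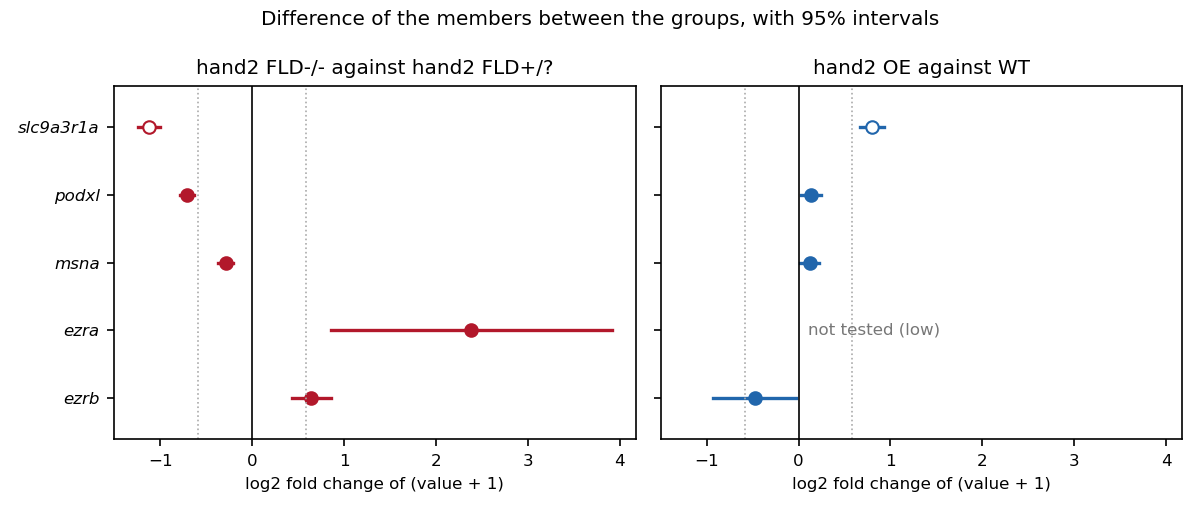
Log2 fold change of (normalized read count + 1) with its 95% interval for the members that passed the minimum mean of 5, in *hand2 FLD*-/- against *hand2 FLD*+/? (left) and in *hand2* OE against WT (right). Dotted lines mark the fold threshold of 1.5 (0.585 on the log2 scale), and the open circle is *slc9a3r1a*, which was chosen by these values. In the left panel *podxl* (-0.71) lies beyond the threshold on the low side and *ezra* (2.39) and *ezrb* (0.65) on the high side, and in the right panel the points of *podxl*, *msna* and *ezrb* lie within it.

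Counted over the members that the choice did not rest on, 4 were tested in *hand2 FLD*-/- cells, of which 1 was called down (*podxl*) and 2 up (*ezra*, *ezrb*). Over all genes 9.43% of 17877 genes tested were called down and 9.09% were called up. The libraries of the groups did not overlap for any of the 4, against 44.3% of all genes tested, and 4 of the 4 had an adjusted p of at most 0.05, against 29.6%. In *hand2* OE cells 3 such members were tested with limma and 0 were called, against 1.57% of 16510 genes called down and 2.53% called up. All 3 had an unadjusted p under 0.05 in limma (20.9% of all genes tested), and 6.63% of all genes had an adjusted p of at most 0.05. Overlap between the groups was seen for all 3, while 26.1% of all genes had none.

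Ratios between members within a library do not depend on the scaling. They can still follow depth, since the slopes described below differ between members (0.83 for *ezrb* and -0.67 for *msna* in the loss-of-function experiment). Per 100 normalized read counts of *msna*, *slc9a3r1a* had between 29.6 and 31.4 in *hand2 FLD*-/- libraries, against 51.5 to 55.3 in *hand2 FLD*+/? libraries. *podxl* had 103 to 106 per 100 of *msna* in *hand2 FLD*-/- libraries, against 135 to 144 in *hand2 FLD*+/? libraries, and *ezrb* had 20.2 to 23.8, against 10.1 to 12.7. The ratios of *podxl* and *ezrb* separated the mutants from their siblings, and that of *slc9a3r1a* carries the choice of the gene. With excess *hand2*, *slc9a3r1a* had 36.1 to 38.8 per 100 of *msna* in *hand2* OE libraries, against 22.6 to 24.2 in WT libraries. *podxl* kept its ratio to *msna*, with 128 to 131 in *hand2* OE libraries and 127 to 130 in WT libraries. The reads of both genes hardly grew with depth there (slopes of -0.84 and -0.78), and whether the ratio holds for the RNA was not tested. *ezrb* had 6.74 to 7.44 in *hand2* OE libraries and 7.43 to 14.1 in WT libraries, which overlapped. The ratios compare the same pair of genes across libraries and say nothing of which transcript is more abundant, since the genes differ in length.

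Depth touches the members. The factor that scaled each library was estimated from the pattern of its whole numbers, and it placed the libraries between 6527202 and 7658794 counted reads in the loss-of-function experiment and between 5002590 and 5765041 in the gain-of-function experiment. Within groups, a gene whose reads grow with depth has a scaled value that does not move with the factor, a slope of 0 on log-log axes, and a gene whose reads do not grow has a slope of -1. In *hand2 FLD*-/- and *hand2 FLD*+/? libraries the slope was -0.67 for *msna*, -0.59 for *podxl*, -0.38 for *slc9a3r1a* and 0.83 for *ezrb*. In *hand2* OE and WT libraries it was -0.78 for *msna*, -0.84 for *podxl*, -0.29 for *slc9a3r1a* and 0.47 for *ezrb*, and the median over genes went down with abundance, with 0.61 for means of 50 to 200 counts and -0.75 for means above 4000. In *hand2 FLD*-/- and *hand2 FLD*+/? libraries that median was 0.24 for means of 50 to 200 counts, -0.33 for means of 2000 to 4000 and -0.09 over the 20 genes above 4000, *podxl* among them. Each slope rests on 6 libraries of nearly equal depth and is given as a description.

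**Figure D3:**
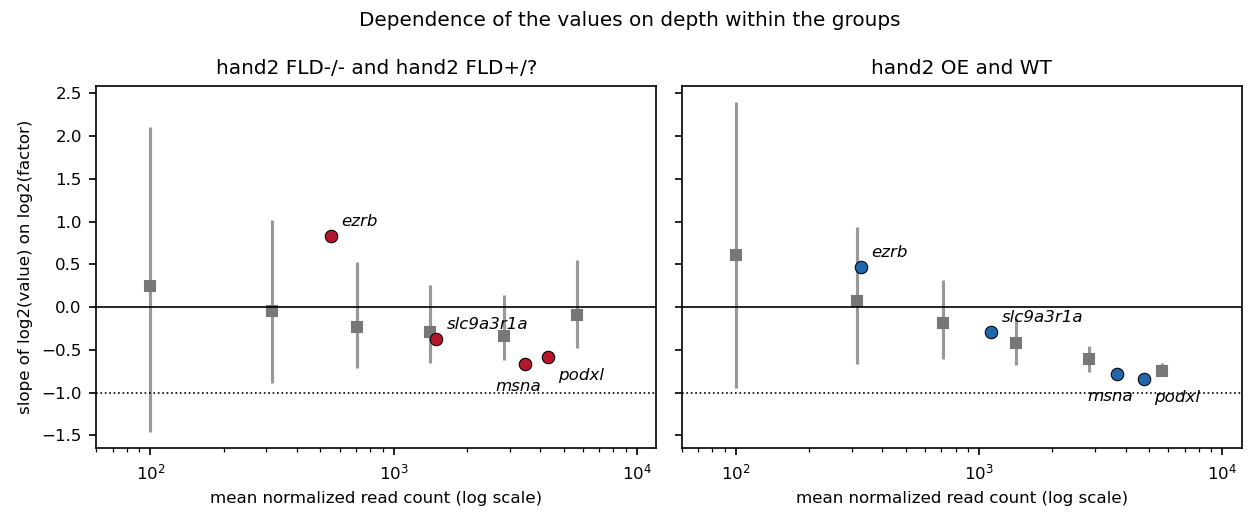
Slope of log2(normalized read count) on log2(estimated library factor) within groups (vertical axis) against the mean normalized read count of a gene (horizontal axis, log scale), in the loss-of-function (left) and gain-of-function (right) experiments. Squares and bars give the median and the quartiles over genes in bins of abundance, circles 4 members, the full line a slope of 0 and the dotted line a slope of -1. *msna* (-0.67 left, -0.78 right) and *podxl* (-0.59 left, -0.84 right) lie closer to the dotted line than *slc9a3r1a* and *ezrb* do.

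All 3 mutant libraries were deeper than the 3 siblings, so this bears on the size of the differences. Undoing the scaling, an alternative chosen after the data were seen, gave estimated reads of 3382, 3324 and 3259 for *msna* in *hand2 FLD*-/- libraries, against 3638, 3544 and 3679 in *hand2 FLD*+/? libraries, and a log2 difference of -0.12. The estimated reads of *podxl* were 3574, 3420 and 3433 in *hand2 FLD*-/- libraries, against 5194, 5088 and 4963 in *hand2 FLD*+/? libraries. Its difference was then -0.55 (adjusted p = 2.58e-05 from limma), which no longer passed the fold threshold, while the groups still did not overlap. The slope of *ezrb* was positive (0.83), so its scaled values rose with the factor within groups. Undoing the scaling does not take out a positive slope, and it gave *ezrb* a log2 difference of 0.81 (adjusted p = 0.00104 from limma). The slopes' part in the differences of *msna*, *podxl* and *ezrb*, and in the call of *ezrb*, was not tested.

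The targeted gene and the sort bear on the reading of the members. *hand2* had 149, 427 and 45 normalized read counts in *hand2 FLD*-/- libraries, against 2228, 2336 and 2380 in *hand2 FLD*+/? libraries (log2 fold change -4.01, adjusted p = 0.00124 from limma). It had 2159, 1939 and 2102 in *hand2* OE libraries, against 1671, 1667 and 1611 in WT libraries, a log2 fold change of 0.32 (adjusted p = 0.00837 from limma) that did not reach the fold threshold. Within groups the slope of *hand2* on the library factor was 6.13 in the loss-of-function experiment, where the 3 mutant libraries differ widely, and -0.67 in the gain-of-function experiment.

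Cardiomyocyte markers were abundant in all libraries. Of their 10 rows 1 was called in *hand2 FLD*-/- cells, *gata4* (down), and the other 9 had log2 fold changes between -0.39 and -0.02, of which 6 had an adjusted p of at most 0.05 in limma and were lower. The summed value of these markers lay between 12766 and 13837 in *hand2 FLD*-/- libraries, against 15718 to 16057 in *hand2 FLD*+/? libraries, without overlap. One of these markers, *myl7*, had a slope on the library factor of -0.79 in the loss-of-function and -0.83 in the gain-of-function experiment. The mutant libraries were the deeper ones, and the part of depth in the marker differences was not tested. Markers of endothelium and endocardium moved with the ezrin genes in the mutants, with 9 of 10 called up by 0.90 to 3.01 on the log2 scale and 0 called down. Over all genes 9.09% were called up and 9.43% down there. Their summed value lay between 6289 and 6672 in *hand2 FLD*-/- libraries, against 1722 to 2003 in *hand2 FLD*+/? libraries, and no endothelial marker was at 0 in any of these libraries. The vascular cadherin *cdh5*, for example, had 1051, 1016 and 1054, against 214, 102 and 134. In *hand2* OE cells 0 of the 10 were called, beside 2.53% of all genes called up and 1.57% called down. Their sums were 752 to 1092 in *hand2* OE libraries and 541 to 757 in WT libraries. In these bulk samples fewer cells of a type and less RNA per cell cannot be told apart. The sort was on a cardiomyocyte reporter, and the part of endothelial RNA in the rise of *ezra* and *ezrb* was not tested.

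Markers of lateral plate mesoderm and mesothelium moved with *slc9a3r1a* in each experiment and with *podxl* in the mutants, while *podxl* was not called in *hand2* OE cells. *slc9a3r1a* was chosen for these directions, so its likeness to the list is a description and no test. In *hand2 FLD*-/- cells 7 of 8 were called down and 0 up, *hand2* itself among them. Over all genes 9.43% were called down and 9.09% up there, shares that also stand beside the counts of the other marker lists below. The sum of the list lay between 3561 and 4459 in *hand2 FLD*-/- libraries, against 9943 to 10367 in *hand2 FLD*+/? libraries. That sum includes *hand2*, which averaged 207 in the mutants and 2315 in the siblings, so part of its fall was set by the deletion. In *hand2* OE cells 3 of 7 tested were called up and 0 down, beside 2.53% and 1.57% of all genes. The list summed to 7184 to 7484 in *hand2* OE libraries and 4923 to 5133 in WT libraries. These sums too include *hand2*, which the transgene expresses, with means of 2067 in *hand2* OE and 1650 in WT. Sums without *hand2* were not taken. The list also holds *jam2b*, called in each experiment (log2 fold change -3.53 in *hand2 FLD*-/- and 2.47 in *hand2* OE). The paper picked *jam2b* from these same data, among the genes most lowered in the mutants and raised in *hand2* OE. Other marker sums moved the same way without overlap. Endoderm markers summed to 1653 to 1961 in *hand2 FLD*-/- and 2129 to 2270 in *hand2 FLD*+/?, and to 1221 to 1371 in *hand2* OE and 960 to 1083 in WT. Neural markers summed to 1830 to 2270 and 2426 to 3050, then to 1795 to 2564 and 1281 to 1673. Most of each endoderm sum was *gata5*, with means of 1498 in *hand2 FLD*-/-, 2141 in *hand2 FLD*+/?, 1281 in *hand2* OE and 1000 in WT. The paper counts GATA5 among the factors of early heart development. Of 5 endoderm markers tested in the mutants 1 was called up, *foxa3* (log2 fold change 2.85, adjusted p = 4.67e-04 from limma), and 0 down. Of 6 neural markers tested there 1 was called up and 2 down. Whether lateral plate, endoderm or neural cells or the cardiomyocytes carried the *slc9a3r1a* RNA was not tested. For ezrin, epidermal markers summed to 2103 to 2152 in *hand2 FLD*-/- libraries and 1272 to 3338 in *hand2 FLD*+/? libraries, so the groups overlapped in them. The highest sibling sum came with 1469 counts of the keratin gene *krt4* in the second library. Of 7 epidermal markers tested, 1 was called up, the epithelial cadherin gene *cdh1*, with 1124, 1123 and 1059 in *hand2 FLD*-/- libraries, against 573, 688 and 700.0 in *hand2 FLD*+/? libraries (log2 fold change 0.76, adjusted p = 1.79e-04 from limma), and 0 were called down. In the gain-of-function experiment epidermal markers summed to 411, 3618 and 1437 in *hand2* OE libraries and to 1753, 539 and 2008 in WT libraries. The part of epidermal RNA in the ezrin values was not tested.

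Other scaffolds of the NHERF and PDZK families gave no comparison with *slc9a3r1a*. Of 4 genes on that list 1 had a row in the loss-of-function table, *pdzk1*, with 0, 0 and 9 normalized read counts in *hand2 FLD*-/- libraries and 10, 3 and 0 in *hand2 FLD*+/? libraries, below the minimum mean. The gain-of-function table had a row for 0 of the 4. The other 3, *slc9a3r1b*, *slc9a3r2* and *pdzk1l*, were not analysed here.

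The list of kinases, GTPases and lipid kinases that switch ERM proteins on went in each direction. It also holds *ppp1r12a*, the gene of a phosphatase subunit, which is not such a switch. In *hand2 FLD*-/- cells 3 of 16 rows tested were called up and 0 down, beside 9.09% and 9.43% of all genes. In limma 4 more had an adjusted p of at most 0.05 with a smaller fold, 7 of 16 in all beside the 29.6% of all genes. The 4 were *slka* (-0.55), *rock2a* (-0.43), *ppp1r12a* (-0.31) and *rock2b* (0.56). The list's median log2 fold change was 0.01, beside 0.00 over all genes, and its summed value lay between 12039 and 12806 in *hand2 FLD*-/- libraries, against 13124 to 13527 in *hand2 FLD*+/? libraries. The risers were *pip5k1bb*, which makes PIP2 (log2 fold change 1.46, adjusted p = 0.0013 from limma), and the ERM tail kinases *stk10*, the gene for LOK (1.28, adjusted p = 0.00172), and *slkb* (0.74, adjusted p = 0.00202). *stk10* had 319, 241 and 293 normalized read counts in *hand2 FLD*-/- libraries, against 131, 85 and 138 in *hand2 FLD*+/? libraries, with no overlap. The paralogue of *slkb* lay on the other side, since *slka* had 857, 894 and 645 in *hand2 FLD*-/- libraries, against 1134, 1099 and 1246 in *hand2 FLD*+/? libraries, a log2 fold change of -0.55 that missed the fold threshold (adjusted p = 0.00671 from limma). Of 17 rows tested in *hand2* OE cells 0 were called in limma, 1 had an adjusted p of at most 0.05 with a smaller fold, and the median was -0.03. Over all genes 1.57% were called down and 2.53% up there, and 6.63% had such an adjusted p.

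Among membrane proteins that bind ERM or NHERF proteins, most of the called genes fell in the mutants. In *hand2 FLD*-/- cells 4 of 12 tested were called down and 1 up, beside 9.43% and 9.09% of all genes. The list median was -1.33 on the log2 scale. Of the 6 genes below that median 4 had a mean under 30 counts, while the well covered *sdc2* and *sdc4* had -0.07 and -0.32. The falls were *cftr*, a chloride channel held by NHERF1 in epithelia (-3.27, adjusted p = 0.0262 from limma), the phosphate transporter *slc34a2a* (-2.86, adjusted p = 0.0468), the adhesion protein gene *cd99* (-2.06, adjusted p = 5.45e-04) and the PDGF receptor *pdgfra* (-1.51, adjusted p = 2.59e-07). *cftr* had 0, 1 and 10 normalized read counts in *hand2 FLD*-/- libraries, against 25, 41 and 17 in *hand2 FLD*+/? libraries. *slc34a2a* had 4, 0 and 0, against 15, 6 and 16. Both passed the minimum mean only through the *hand2 FLD*+/? libraries. Their calls rest on low values, and each was lost without some of the libraries. *pdgfra* had 1077, 1110 and 1006, against 2953, 3015 and 3148. The paper picked *pdgfra* from these same data as lower in the mutants, so its fall here is no separate evidence. The riser was the second PDGF receptor, *pdgfrb*, with 253, 256 and 305 in *hand2 FLD*-/- libraries, against 33, 44 and 27 in *hand2 FLD*+/? libraries (2.95, adjusted p = 2.58e-05 from limma). PDGF receptors are among the tyrosine kinases that NHERF scaffolds bind in mammalian cells. With excess *hand2*, 0 of 10 tested were called in limma, beside 1.57% of all genes called down and 2.53% called up. Of the 10, 2 had an adjusted p of at most 0.05 with a smaller fold, and the list median was -0.05. *pdgfra* was one of those, with a log2 fold change of 0.49 (adjusted p = 0.0183 from limma).

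Other proteins with a FERM domain gave a mixed picture. Of 15 tested in *hand2 FLD*-/- cells 2 were called up and 2 down, beside 9.09% and 9.43% of all genes. The list median was -0.02. *epb41b*, a gene of the membrane skeleton known from red cells, had 401, 301 and 328 normalized read counts in *hand2 FLD*-/- libraries, against 16, 21 and 8 in *hand2 FLD*+/? libraries (log2 fold change 4.51, adjusted p = 2.08e-05 from limma). *fermt3b*, a kindlin gene of blood cells, rose by 0.79 (adjusted p = 0.0302), a call that was lost without the first or the second *hand2 FLD*-/- library, or the second or the third *hand2 FLD*+/? library. Of 6 erythroid and 5 leukocyte markers tested in these libraries 0 were called. Erythroid markers summed to 89 to 150 in *hand2 FLD*-/- and 89 to 389 in *hand2 FLD*+/?, and leukocyte markers to 2486 to 2827 and 2859 to 3219. The part of blood RNA in these values was not tested. *epb41l3a* fell by 1.29 (adjusted p = 2.29e-05), and *epb41l5*, which acts in epithelial polarity, fell by 0.79 (adjusted p = 8.92e-06). *epb41l5* had 1249, 1425 and 1355 in *hand2 FLD*-/- libraries, against 2284, 2343 and 2344 in *hand2 FLD*+/? libraries. With excess *hand2*, 0 of 14 tested were called in limma and 0 had an adjusted p of at most 0.05. Over all genes 1.57% were called down and 2.53% up there, and 6.63% had such an adjusted p.

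Genes of microvilli and actin bundles, the structures in which ezrin and NHERF1 sit in epithelia, had 3 of 11 called up and 0 down in *hand2 FLD*-/- cells. Over all genes 9.09% were called up and 9.43% down, and the list median was 0.22. The risers were the unconventional myosins *myo7aa* (log2 fold change 1.94, adjusted p = 0.0107 from limma) and *myo6b* (0.76, adjusted p = 0.0425) and *eps8l2*, from the family of actin-capping EPS8 proteins (1.78, adjusted p = 0.00643), and the call of *myo6b* was lost when any library other than the third *hand2 FLD*-/- library was left out. The bundlers with many reads lay slightly lower, as *pls3*, the gene for plastin, had 1237, 1102 and 1144 normalized read counts in *hand2 FLD*-/- libraries, against 1539, 1717 and 1670 in *hand2 FLD*+/? libraries (-0.50, adjusted p = 3.32e-04, short of the fold threshold). In *hand2* OE cells 2 of 10 were called up and 0 down, beside 2.53% and 1.57% of all genes. *myo7aa* had 11, 27 and 33 in *hand2* OE libraries and 0 in each WT library, so it passed the minimum mean only through the *hand2* OE libraries. Its *hand2* OE mean was 7.89-fold a floor of 3 counts per WT library, a floor that was set by hand, so this is no lower bound. Its call was lost without any 1 of the 6 libraries and with the replicate block. The fascin gene *fscn1a* had 741, 1016 and 772 in *hand2* OE libraries, against 533, 564 and 444 in WT libraries (0.71, adjusted p = 0.0191 from limma), and lost its call in limma without the trend, without the second *hand2* OE, the first WT or the third WT library, and on unscaled estimated reads.

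**Figure D4:**
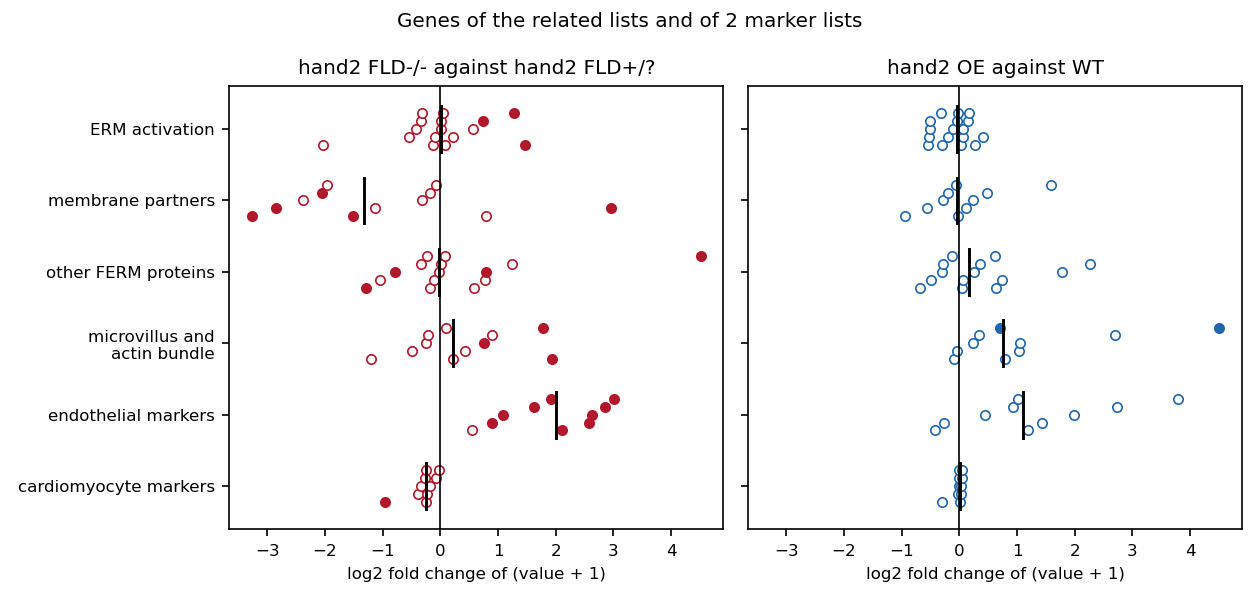
Log2 fold change of (normalized read count + 1) of each gene tested on 4 related lists and on the endothelial and cardiomyocyte marker lists, in *hand2 FLD*-/- against *hand2 FLD*+/? (left) and in *hand2* OE against WT (right); filled circles were called, open circles were not, and black bars are list medians. The membrane partners lie lowest on the left (median -1.33, with 4 of the 6 genes below it under a mean of 30 counts) and near 0 on the right (-0.05), and the endothelial markers lie highest on the left (2.01).

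The deposited annotation ties the ERM rows together apart from their names. In the loss-of-function experiment 8 rows carry both gene ontology terms actin binding and extrinsic component of membrane, and 4 of these are *ezra*, *ezrb*, *msna* and *msnb*. The other 4 are *ctnna1*, *nf2a*, *nf2b* and *epb41l3a*. Of 7 tested there, 2 were called up, *ezra* and *ezrb*, and 1 down, *epb41l3a*, beside 9.09% and 9.43% of all genes. Of 6 tested in *hand2* OE cells 0 were called in limma, beside 2.53% of all genes called up and 1.57% called down. Neither *slc9a3r1a* nor *podxl* carries both terms.

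The genes whose pattern over the 12 libraries was most like that of *slc9a3r1a* were found by Pearson correlation of log2(value + 1), centred within each experiment, among 10739 genes whose mean reached 50 in each table. They were *msx3* (r = 0.99), *cd151* (0.99), *ckba* (0.99), *apoeb* (0.99) and *kirrel3l* (0.99). The homeobox gene *msx3* averaged 310 in *hand2 FLD*-/- and 2078 in *hand2 FLD*+/?, and 952 in *hand2* OE and 220 in WT. The tetraspanin gene *cd151* averaged 781 in *hand2 FLD*-/- and 1387 in *hand2 FLD*+/?, and 993 in *hand2* OE and 620 in WT. Of the members, *msna* came 287th (r = 0.91), *podxl* 360th (r = 0.89) and *ezrb* near the opposite end (r = -0.85). The points share their libraries and the difference between groups, so a high r says mainly that a gene differed between the groups as *slc9a3r1a* did.

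The genes most like *podxl* by the same measure were *mybphb* (r = 0.99), *smtnl1* (0.99), *dixdc1b* (0.99), *atp2a2a* (0.99) and *angptl6* (0.99). *atp2a2a*, the calcium pump of the cardiac sarcoplasmic reticulum, averaged 2060 in *hand2 FLD*-/- and 5488 in *hand2 FLD*+/?, and 5202 in *hand2* OE and 4592 in WT. *mybphb*, a myosin-binding protein gene, averaged 1277 in *hand2 FLD*-/- and 2269 in *hand2 FLD*+/?, and 2436 in *hand2* OE and 2248 in WT. Each of the 5 was lower in *hand2 FLD*-/- and slightly higher in *hand2* OE, and none was among those most like *slc9a3r1a*.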

How the data were processed

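Messenger RNA was measured in 12 libraries of 2 experiments, with 3 libraries per group. Per the labels and the methods, the authors used Trimmomatic 0.39 for trimming, STAR 2.7.10a for alignment to danRer11 and featureCounts 2.0.2 for counting in exons, and excluded reads with more than 1 gene or place, which can lower the counts of paralogous genes. Use of strand is not given in the sources used here. They ran DESeq2 1.30.1. Each deposited value is a score, a read count that the authors divided by a factor for its library and then rounded.

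The tables hold scaled values, so the test planned for normalized values was used, limma 3.58.1 in R 4.3.3 (eBayes with trend) on log2(value + 1). Genes entered where their mean over the 6 libraries reached 5. On this scale the added 1 draws the fold changes of low genes toward 0, while 1 library near 0 can enlarge them. The log2 fold change of 2.39 for *ezra* in *hand2 FLD*-/- cells is larger than that of the ratio of its group means (4.02). In simulated data with 200 changed genes, the steps found 200 in the loss-of-function experiment (17832 genes) and 199 in the gain-of-function experiment (16542 genes). They also called 4 and 3 unchanged genes. The changed genes had a mean of at least 50 and a change of at least 2-fold. The dispersion (spread beyond counting error) was 0.01, and reads grew in proportion to depth. Recovery of lower genes, smaller folds or wider spreads, as among the members, was not simulated. Library factors were estimated from missing or doubled whole numbers among low values, and on 60 simulated libraries the largest error was 0.044%. Reads carry no molecular identifiers, so depth bounds counting error only.

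The members and gene lists were chosen with earlier results of these data known. All 7 members are named, from each list at most 4 called genes per direction, largest change first, *hand2*, and the 5 genes most like *slc9a3r1a* and *podxl*. Outside that rule, *slka*, *rock2a*, *rock2b*, *ppp1r12a*, *sdc2*, *sdc4*, *krt4*, *gata5*, *pls3*, *pdzk1* and the genes sharing 2 annotation terms were named after their values were seen. No sequences of the members were used.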

Additional observations from a re-analysis of the deposited data

How the results depend on the processing

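In *hand2 FLD*-/- against *hand2 FLD*+/?, 3 members other than *slc9a3r1a* were called, and with a fold threshold of 2 the number was 1. Leaving out each library in turn gave between 2 and 3. In *hand2* OE against WT the number was 0, and 0 to 1 with each library left out, the 1 being *ezrb* without the second WT library. No tested member changed direction under any of 17 alternatives, which were pseudocounts of 0.5 and 5, no filter or a mean of at least 20, equal library totals, median ratio scaling, limma without the trend, no fold threshold or 2, the replicate number as a block, each library left out and, chosen after seeing the data, unscaled estimated reads. The filters, the trend, the fold thresholds and the block leave a log2 fold change as it was, so direction could not change under them. Nor could it change by leaving out 1 library where the groups did not overlap. The direction of *slc9a3r1a* is what it was chosen for. *msnb*, and *ezra* with excess *hand2*, were not tested. Undoing the scaling brought *slc9a3r1a* in *hand2 FLD*-/- to -0.96 and in *hand2* OE to 0.73 on the log2 scale, and *msna* in *hand2 FLD*-/- to -0.12. The deviations of same-numbered libraries from their group means were weakly correlated (correlations of 0.04, 0.06 and 0.04 in the loss-of-function and -0.06, -0.07 and -0.01 in the gain-of-function experiment). All were under 0.1, a limit that was not part of the plan and does not decide whether the numbers are pairs. With the replicate block 3 members were called in *hand2 FLD*-/- and 0 in *hand2* OE. In the loss-of-function experiment each *hand2 FLD*-/- library correlated best with the sibling of its own number, a hint from the data and not from the labels, and in the gain-of-function experiment that was not so. Differences of a few reads in *msnb*, and in *ezra* with excess *hand2*, are not detectable at this depth.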
